A study of Rattus norvegicus with 8 samples.

Results

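The granins and prohormone processing enzymes are the resident proteins of dense-core granules, the organelles in which endocrine and neuroendocrine cells store peptide hormones and amines. Of the 10 genes considered, 9 had at least 1 probe set annotated with their symbol alone, among 11 probe sets, and all 11 were on chip A. The genes are Chga, Chgb, Scg2, Scg3, Vgf and Scg5 on the granin side, and Pcsk1, Pcsk2, Cpe and Pam among the enzymes. No probe set carried the symbol Pcsk1, so that convertase was not analysed here, and chip B carried 0 probe sets of the 10 genes. They were drawn from 13810 gene symbols on both chips together. Pam was measured by 3 probe sets and the other 8 genes by 1 each.

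RNA came from PC12, a rat line derived from a tumour of the adrenal medulla (pheochromocytoma) whose cells hold catecholamines in such granules. The arrays fall into forskolin and no forskolin, with 2 arrays of each on chip A and 2 of each on chip B, 8 arrays in all. Forskolin is a plant compound that activates adenylyl cyclase and so raises cyclic AMP. The series title calls its counterpart an inactive control, and neither dose, exposure time nor culture numbers are given in the sources used here, so p-values measure only the spread between these arrays, which may be technical. PC12 is a single tumour line, which limits it as a model of the normal chromaffin cell.

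Granins are acidic secretory proteins that aggregate in the late Golgi, take part in forming the granule and are themselves cut into peptides. The convertases encoded by Pcsk1 and Pcsk2 cut prohormones after pairs of basic residues, carboxypeptidase E (Cpe) trims the exposed basic residues, and peptidylglycine alpha-amidating monooxygenase (Pam) turns a terminal glycine into an amide. Several of these genes carry a cyclic AMP response element (CRE) in their promoters in mammals, the site bound by CREB, and Vgf was first isolated as a gene that nerve growth factor induces in PC12 cells.

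The promoters are shown because forskolin acts through cyclic AMP. RefSeq's table (build GRCr8) held 8 of the 10 genes, all but Chga and Pcsk1. The table gives 1 start site per gene. In 4 of the 8 genes (Chgb, Scg3, Pcsk2 and Cpe) that site is the outer end of the RefSeq gene record, and in the others it lies inside the record, by 4783 bases in Vgf, 342 in Scg2, 86 in Scg5 and 124556 in Pam. In the 250 bases before the table's start site, the full palindromic element TGACGTCA was found in 2 of the 8, Vgf and Scg2. It occurs in the same window of 1.59% of the 33469 promoters of the table. The first base of the element lay 90 bases before this start site in Vgf and 123 bases before it in Scg2, so that both elements fall within the annotated gene records. The windows of Vgf (chr12:25277021-25277270, minus strand), Scg2 (chr9:88256867-88257116, minus strand) and Chgb (chr3:140496462-140496711, plus strand) read as follows, 5′ to 3′, with CRE letters in capitals.
Vgf: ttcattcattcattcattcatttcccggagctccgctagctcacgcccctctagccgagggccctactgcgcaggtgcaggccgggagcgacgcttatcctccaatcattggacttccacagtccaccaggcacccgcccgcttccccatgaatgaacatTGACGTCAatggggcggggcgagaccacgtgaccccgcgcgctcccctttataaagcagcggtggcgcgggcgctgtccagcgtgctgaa
Scg2: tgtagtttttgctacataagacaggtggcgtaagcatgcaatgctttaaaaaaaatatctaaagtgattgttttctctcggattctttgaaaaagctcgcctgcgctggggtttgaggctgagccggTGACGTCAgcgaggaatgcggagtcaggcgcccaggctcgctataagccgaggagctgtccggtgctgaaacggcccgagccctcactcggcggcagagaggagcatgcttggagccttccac
Chgb: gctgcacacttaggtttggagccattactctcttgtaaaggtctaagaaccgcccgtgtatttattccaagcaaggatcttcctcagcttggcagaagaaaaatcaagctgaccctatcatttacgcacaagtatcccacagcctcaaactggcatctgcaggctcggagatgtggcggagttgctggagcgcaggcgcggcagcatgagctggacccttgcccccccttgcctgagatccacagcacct

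The half-site TGACG, searched on both strands and also counted within the full element, was in 7 of the 8 windows, against 18.2% of all promoters. In Scg3 it began 69 bases before the table's start site, in Pcsk2 57, in Pam 105, in Cpe 173 and in Scg5 7. The Chgb window held neither form. TATAAA, on either strand, was in 1 of the 8 windows, that of Vgf, against 12.9% of all promoters. These matches describe the letters in the window and do not show that a factor binds there.

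Values are the authors' log2 expression values per probe set. Changes are forskolin minus no forskolin, tested with limma across all 11106 chip A probe sets above a brightness filter and called at a Benjamini-Hochberg adjusted p under 0.05. Of the 11 probe sets, 9 passed the filter, which represent 8 genes. Probe set brightness depends on the probes as well as on the transcript, so no gene's level is set against another's here.

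The limma test called 0 of the 9 tested probe sets, while it called 3.30% of all tested probe sets of the chip. At an unadjusted p under 0.05, 3 were higher, Vgf, Chgb and Chga, and 1 was lower, Cpe. Over all tested probe sets, 7.10% were higher and 10.3% lower by that rule. In RNA from whole cultures, fewer cells that express a gene and less of its RNA per cell cannot be told apart.

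The treatment itself left a large mark on the same arrays. Fos, an AP-1 subunit and a classic CREB target, measured 9.34 and 9.17 in the forskolin arrays, against 5.14 and 5.30 in the arrays without forskolin, on 1 of its 2 tested probe sets (log2). The other Fos probe set measured 7.92 and 7.92 with forskolin, against 7.88 and 7.85 without, and was not called (limma adjusted p = 0.519). Nr4a1, an orphan nuclear receptor, rose by 2.77 ± 0.075 (log2, SE), and Crem, which encodes cyclic AMP-responsive activators and repressors, by 0.88 ± 0.054 on its tested chip A probe set. The limma adjusted p of the first Fos probe set, Nr4a1 and Crem was at most 2.87e-05.

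**Figure D1:**
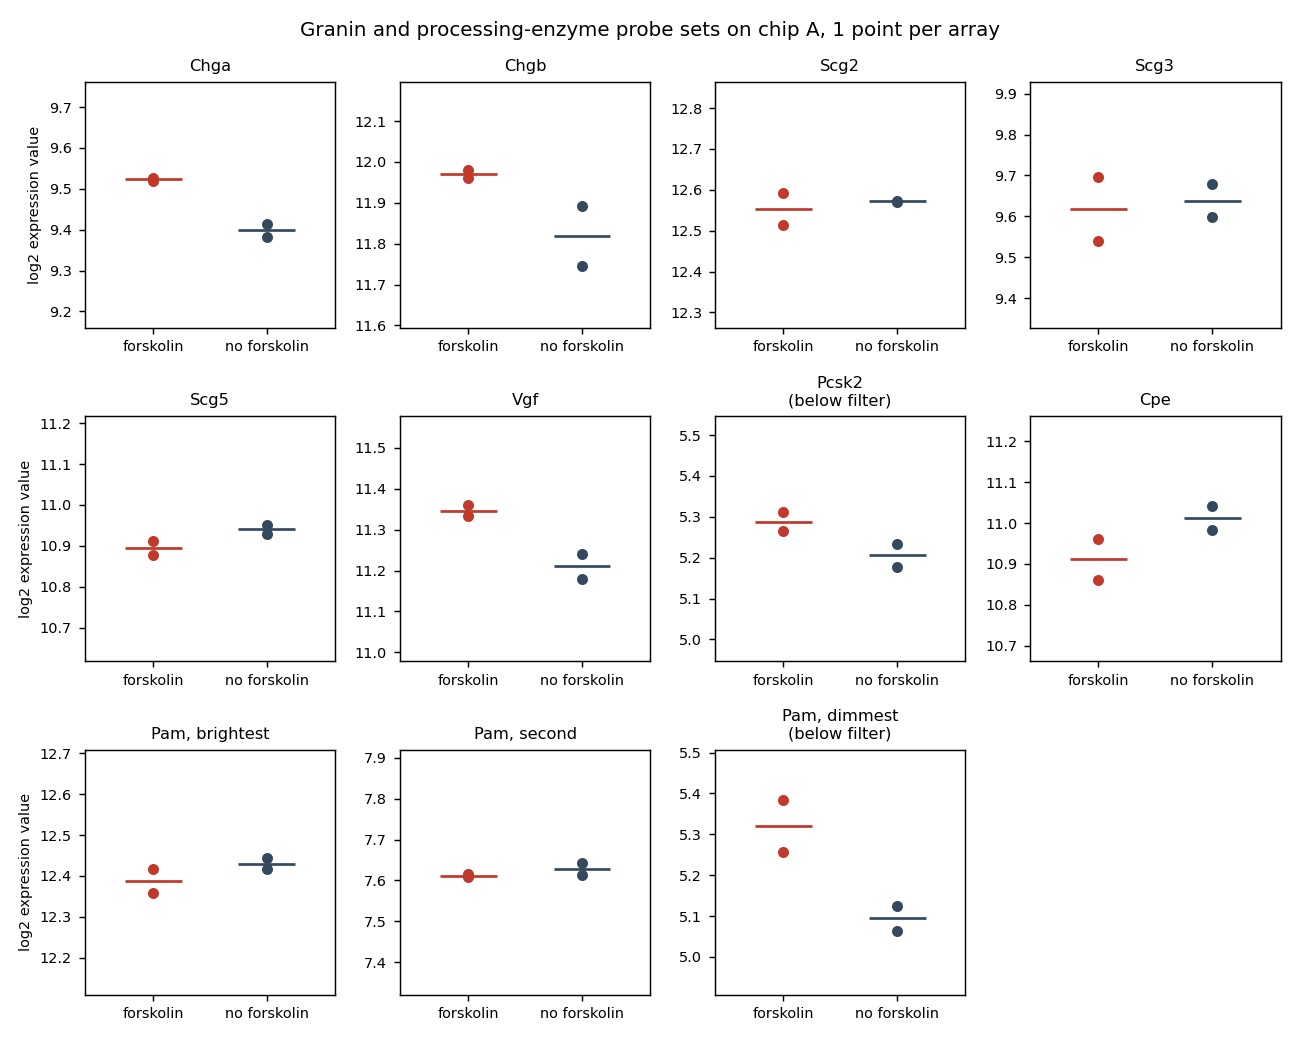
Log2 expression value (vertical axis, a window of equal height in every panel) of the 11 probe sets on chip A, with 1 point per array, forskolin (red) left of no forskolin (blue), and a line at each group's mean. The 2 groups are apart for Chga, Chgb and Vgf, with forskolin higher, and for Cpe and Scg5, with forskolin lower. Scg2, Scg3 and the 2 brighter Pam probe sets overlap. Pcsk2 and the dimmest Pam probe set, which were below the filter, are also apart, with forskolin higher.

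Among the granins, Vgf, chromogranin B and chromogranin A were those with an unadjusted p under 0.05, and in each the forskolin arrays lay above the controls. Vgf, a secreted precursor of several bioactive peptides, measured 11.33 and 11.36 in the forskolin arrays, against 11.18 and 11.24 in those without (log2). The arrays of a group lay closer to each other than to those of the other group. The difference was 0.14 ± 0.034 (log2, SE), or 1.10-fold with a 95% interval of 1.04 to 1.16, and it was not called (limma adjusted p = 0.0882). It stood at rank 509 of 11106 by p.

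Chgb encodes chromogranin B, a granule core protein. It measured 11.96 and 11.98 in the forskolin arrays, against 11.75 and 11.89 without forskolin (log2). The forskolin arrays differed from each other by 0.018 and the control arrays by 0.15, so that the spread came mainly from the controls. Its difference was the largest among the tested probe sets of the granins and processing enzymes, at 0.15 ± 0.046 (log2, SE). That is 1.11-fold with a 95% interval of 1.03 to 1.19, and it was not called (limma adjusted p = 0.139). Without no forskolin replicate 2 the difference was 0.22 with a limma adjusted p of 0.00435, and without no forskolin replicate 1 it was 0.079 with 0.436, which is below the values of Vgf and Chga in that fit (both 0.11).

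Chga encodes chromogranin A, the precursor of vasostatin, pancreastatin and catestatin. It measured 9.52 and 9.53 in the forskolin arrays, against 9.38 and 9.41 in the control arrays (log2). The arrays of a group nearly coincided and the groups did not overlap. The difference was 0.12 ± 0.038 (log2, SE), or 1.09-fold with a 95% interval of 1.03 to 1.16, and again was not called (limma adjusted p = 0.145).

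Scg2 and Scg3 gave overlapping groups. Scg2, the precursor of secretoneurin, measured 12.59 and 12.51 with forskolin, against 12.57 and 12.57 without (log2). One forskolin array was above and the other below both controls, and the difference was -0.018 ± 0.032 (log2, SE), with a 95% interval of -0.091 to 0.055. In fold terms that interval runs from 0.939 to 1.04. Scg2 and Vgf both carry the full CRE printed above, and these are the differences measured for each, -0.018 and 0.14 (log2); whether they differ from each other was not tested.

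Scg3 encodes secretogranin III, which binds chromogranin A and the cholesterol-rich granule membrane. It measured 9.54 and 9.70 with forskolin, against 9.60 and 9.68 without (log2). It had the widest error among the tested probe sets of the granins and processing enzymes. The difference was -0.020 ± 0.057 (log2, SE), with a 95% interval of -0.15 to 0.11. The groups overlapped, and arrays of the same group differed by more than the group means did.

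Scg5 encodes 7B2, which helps the convertase of Pcsk2 to mature and can inhibit it. It measured 10.88 and 10.91 with forskolin, against 10.93 and 10.95 without (log2). The groups did not overlap, but the gap between them was small, and the difference of -0.046 ± 0.033 (log2, SE) had a 95% interval of -0.12 to 0.030 (limma adjusted p = 0.519).

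The enzymes showed no call either. Cpe measured 10.86 and 10.96 with forskolin, against 10.98 and 11.04 without (log2). Its forskolin arrays were both below the controls, by a difference of -0.10 ± 0.043 (log2, SE), or 0.932-fold with a 95% interval of 0.871 to 0.997 (limma adjusted p = 0.269). Among the tested probe sets of the granins and processing enzymes it had the most negative difference. It was at percentile 9.78 of all tested chip A changes, while Chgb was at percentile 96.3. Without forskolin replicate 1 the difference of Cpe was -0.052 (limma adjusted p = 0.587), and the brightest Pam probe set (-0.070) and Scg2 (-0.058) were then more negative; without forskolin replicate 2 it was -0.15 (0.146).

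The 3 Pam probe sets are named here by their order of brightness. The brightest measured 12.42 and 12.36 with forskolin, against 12.42 and 12.44 without, a difference of -0.041 ± 0.030 (log2, SE). The second measured 7.62 and 7.61, against 7.61 and 7.64, a difference of -0.016 ± 0.045 (log2, SE). Neither was called (limma adjusted p = 0.528 and 0.901), and in both the groups overlapped.

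The dimmest Pam probe set lay below the filter, at percentile 7.22 of brightness, and was not tested. It measured 5.38 and 5.26 with forskolin, against 5.13 and 5.06 without (log2), a difference of 0.23 whose direction is opposite to that of the brighter probe sets. Pcsk2 also lay below the filter, at percentile 7.56, with 5.26 and 5.31 in the forskolin arrays, against 5.23 and 5.18 in the controls (log2). The lowest mean level kept by the filter was 7.02. How far such dim signals stand above background is not known, because no detection calls were used here.

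**Figure D2:**
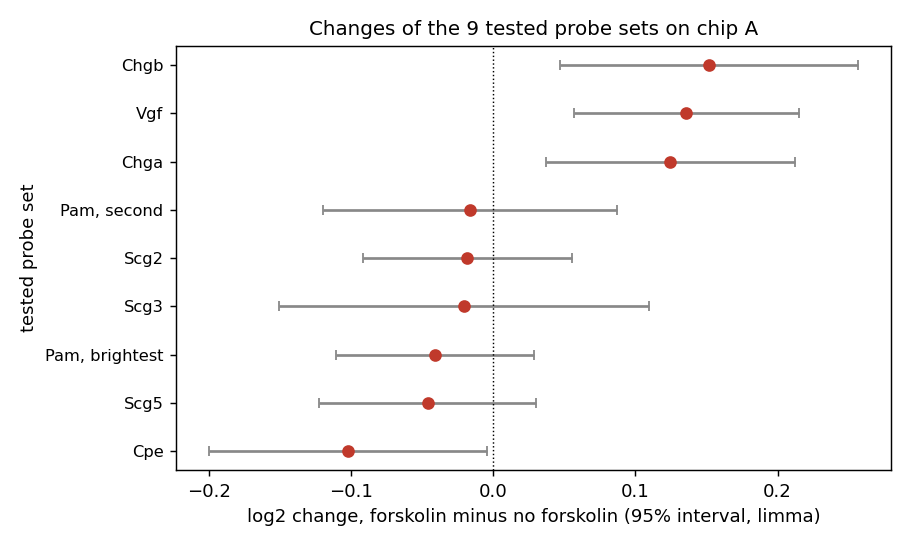
Log2 change, forskolin minus no forskolin (horizontal axis), of the 9 tested probe sets, with 95% intervals from limma. The intervals of Chgb, Vgf and Chga lie above 0, that of Cpe lies below 0, and the other 5 include 0.

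As a set, the 9 tested probe sets ranged in change from -0.10 to 0.15 (log2). Their median was -0.018, beside -0.0082 for the whole of chip A above the filter. In 3 of them both forskolin arrays were above both controls, and in 2 both were below, against 20.4% and 28.0% of all tested probe sets.

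The intervals hold for each tested probe set alone and rest on the spread between these arrays, which may be technical. The highest upper bound was 0.26 (log2), for Chgb, or 1.19-fold higher, and the lowest lower bound was -0.20, for Cpe, or 1.15-fold lower. The smallest change that was called anywhere on chip A was 0.15 in size (log2), and the median size of the 366 called changes was 0.32. The standard errors of the 9 probe sets ran from 0.030 to 0.057, and the chip's median was 0.045.

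**Figure D3:**
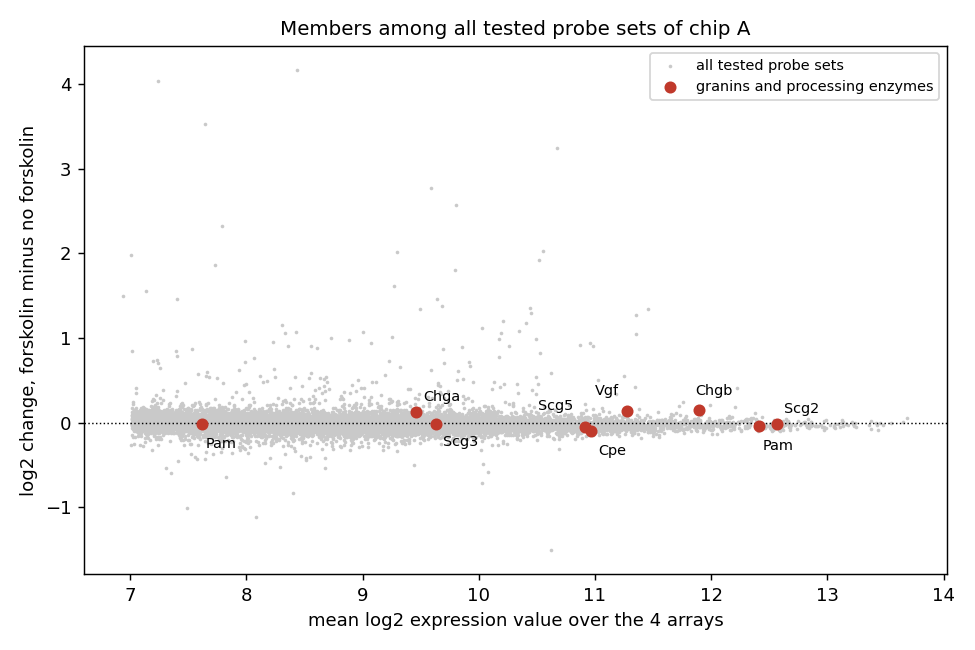
Log2 change, forskolin minus no forskolin (vertical axis), against mean log2 expression value over the 4 chip A arrays (horizontal axis) for all 11106 tested probe sets (grey), with the granin and processing-enzyme probe sets in red. The red points lie between -0.10 and 0.15, while single grey points pass 4.

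Scaling moved the calls for a pair of the granins. Under quantile normalization of the 4 arrays, Vgf was higher by 0.15 (limma adjusted p = 0.0165) and Chgb by 0.16 (0.0470), and with the array medians aligned they were higher by 0.13 (0.0320) and 0.15 (0.0491), which counts as a call in each case. The array medians without such alignment were 8.16 and 8.17 with forskolin, against 8.15 and 8.17 without (log2). Chga stayed above the threshold under both scalings, with 0.0956 as its lowest adjusted p over the alternatives, and Cpe with 0.132. Scg2 changed sign to 0.024 under quantile normalization. Calls also rose over the whole of chip A, from 226 higher and 140 lower with the authors' scaling. They were 282 and 190 under quantile normalization, and 300 and 277 with the medians aligned.

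**Figure D4:**
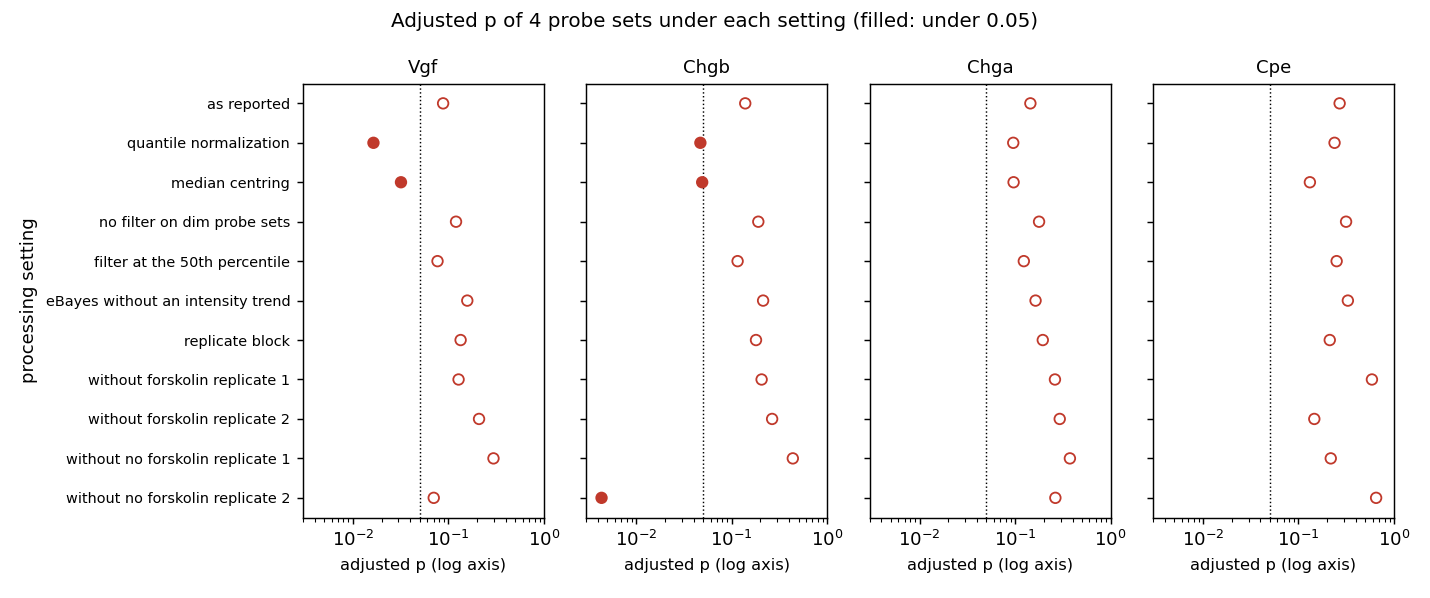
Limma adjusted p (horizontal log axis) of Vgf, Chgb, Chga and Cpe under each processing setting (rows), with filled points under 0.05 and a dotted line at 0.05. Vgf and Chgb are filled under both scalings, Chgb also without no forskolin replicate 2, and Chga and Cpe nowhere.

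The genes closest to Vgf and Chgb in their pattern over the 4 chip A arrays were found by Euclidean distance between values centred on each probe set's own mean, among 9360 other tested probe sets with 1 symbol. For Vgf they were Zmiz1, Isg20 and Aebp1, at distances of 0.013, 0.0157 and 0.0158, and for Chgb they were Dyrk1a, Or6a2 and Pcnx1, at 0.0302, 0.0327 and 0.0331. Their changes lay between 0.13 and 0.14 (log2) and none was called. Changes close to those of Vgf and Chgb follow from the choice, which used the same 4 values. With 4 arrays such closeness is a description only.

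Other genes of the granule pathway were read from 6 lists, each gene through its brightest tested probe set and on chip A where it had one there. Among 67 tested genes of these lists limma called 1 higher and 0 lower. At an unadjusted p under 0.05, 5 of the 67 were higher and 2 lower. Of all chip A probe sets tested, limma called 3.30%, and 7.10% were higher and 10.3% lower by the unadjusted rule. Genes without a tested chip A probe set were read on chip B, for which no unadjusted share was computed. On chip B limma called 0.159% of tested probe sets, and its precision was lower, with a median standard error of 0.089 (log2).

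Of 3 tested granin-like and helper genes, none was called. Nnat, a small membrane protein gene of neuroendocrine cells, measured 10.92 and 10.93 with forskolin, against 11.02 and 11.03 without (log2), a difference of -0.10 (limma adjusted p = 0.156). Gnas, whose locus encodes both the stimulatory G protein subunit and the granin NESP55, differed by 0.051 (0.281) on its brightest probe set, and Pcsk1n, whose product proSAAS inhibits the convertase of Pcsk1, by -0.034 (0.692). The other tested probe set of Gnas differed by 0.0067 (log2), with overlapping groups. The list's median change was -0.034.

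The remaining proprotein convertases gave no call in 5 tested genes, and their median change was -0.025 (log2). Furin, the convertase of the trans-Golgi, differed by 0.058, Mbtps1, the site-1 protease, by -0.050, Pcsk7 by -0.028 and Pcsk5 by -0.025. Of 10 further trimming enzymes none was called either, with a median of -0.026. Cpd, a carboxypeptidase of the trans-Golgi related to Cpe, measured 9.35 and 9.53 with forskolin, against 9.28 and 9.31 without, a difference of 0.14 (limma adjusted p = 0.266). Cathepsin L (Ctsl) differed by -0.079, Cpxm2 by 0.13 and, on chip B, Ece2 by -0.17, with limma adjusted p from 0.350 to 0.977. The other tested probe set of Ece2 differed by -0.030, with overlapping groups.

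Peptide cargo was also uncalled, in 15 tested genes of 26 with a probe set, with a median change of -0.015 (log2) and none past an unadjusted p of 0.05 in the same fits. Cck, the cholecystokinin precursor, differed by 0.086, Nmu (neuromedin U) by -0.094, Iapp (amylin) by 0.094 and Adm (adrenomedullin) by 0.071, the lowest limma adjusted p being 0.345. Among 10 tested genes of the granule membrane and amine cargo none was called, and the median change was 0.0062. Zdhhc17, a palmitoyltransferase, measured 8.97 and 9.02 with forskolin, against 8.87 and 8.88 without, a difference of 0.12 (limma adjusted p = 0.182). The synaptic vesicle glycoprotein genes Sv2c and Sv2b differed by 0.10 and 0.075, and Slc18a2, a vesicular monoamine transporter, by -0.089 on chip B. The chip A probe sets of Slc18a2, below the filter and not tested, differed in the opposite direction, by 0.14 and 0.15.

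The one call among these lists fell in the 24 tested genes of granule formation, docking and release. Syt4, a synaptotagmin of granule membranes, measured 10.48 and 10.64 in the forskolin arrays, against 9.74 and 9.83 in the control arrays (log2). It rose 1.71-fold, by 0.77 ± 0.056 (log2, SE, limma adjusted p = 9.68e-05), and its other tested probe set by 0.67. Syt9, a calcium sensor of PC12 granule release, differed by 0.13 and the SNARE gene Stx1a by -0.10. Cadps, a priming factor for granules, differed by -0.067. None of these genes was called. The other tested probe set of Stx1a differed by -0.034, with overlapping groups. The median of the list was 0.0069.

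The label of the line was set against marker genes. Of 6 chromaffin-type markers with a probe set, 4 passed the filter, with Th at 11.71 and 11.79 in the forskolin arrays and 11.66 and 11.61 in the controls (log2), a difference of 0.11 that was not called (limma adjusted p = 0.153). Phox2a, a transcription factor of sympathoadrenal cells, rose by 0.41 (limma adjusted p = 1.02e-04). Ddc, which encodes the enzyme that makes dopamine, differed by 0.027 on its brightest probe set and by -0.069 on its other tested probe set. Chrna3, a nicotinic receptor subunit, differed by -0.0016. Dbh, whose enzyme makes noradrenaline, and Slc18a1, which loads amines into granules, lay below the filter, at 6.85 and 6.90 with forskolin, against 6.70 and 6.68 without, for Dbh, and at 6.75 and 6.82, against 6.85 and 6.94, for Slc18a1. Among markers of other cells, 3 of 6 fibroblast, 2 of 3 glial, 2 of 5 adrenal cortex and 1 of 3 blood and endothelial genes passed the filter, and none was called. The filter keeps 11106 of the 15866 chip A probe sets by design, so passing it does not show that a cell type is present. The summed linear value of the fibroblast markers on chip A was 5336 and 5490 with forskolin, against 5257 and 5325 without, largely from Col3a1. Col1a1 differed by 0.14 and 0.054 on its 2 tested probe sets, Col3a1 by 0.015 and Dcn by -0.023 (log2). Col3a1 measured 11.83 and 11.84 with forskolin, against 11.81 and 11.83 without (log2). For adrenal cortex markers the chip A sum was 484 and 504 with forskolin, against 487 and 461 without, and Cyp11a1 differed by 0.11 and, on chip B, Nr5a1 by 0.12 (log2). For blood and endothelial markers the sum was 267 and 274 with forskolin, against 261 and 261 without, and Cd68 differed by 0.080. For glial markers it was 486 and 480 with forskolin, against 480 and 464 without, with Sox10 at a difference of 0.058 and Gfap at -0.024. Whether the values of these markers bear on the differences of Chga, Chgb and Vgf was not tested.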

How the data were processed

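The deposited tables hold 1 log2 expression value per probe set and array, as the authors processed them. The sources used here do not give the background correction, probe summary or scaling, and no raw scans were used. Base 2 was inferred: 0 values exceed a 16-bit scanner when read so. Array medians differed by 0.02 on each chip, so the authors' scaling was kept and no pseudocount added. Groups came from the array titles. Probe sets under the 30th percentile of mean linear value were left out (11106 of 15866 kept on chip A, 10693 of 15276 on chip B).

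Each chip was fitted alone with limma 3.58.1 in R 4.3.3 (lmFit, eBayes with an intensity trend, two-sided), with Benjamini-Hochberg adjustment over all its tested probe sets. A 95% interval typically reached 0.10 (log2, median) to either side of a change for chip A and 0.21 for chip B, which the number of arrays limits. The fit was also run on simulated data with independent normal noise, which cannot test how far these arrays stand for separate cultures. Symbols came from the platform annotation, updated by gene number to RefSeq (GRCr8). Promoters came from RefSeq, as 1 start site per gene.

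The members and lists were chosen with earlier results of these data known. Genes named are all members, 3 treatment checks, called genes and up to 4 with the smallest p in each other list, and the 3 nearest patterns to each of 2 members; Dbh and Slc18a1 were added after their values were seen, as chromaffin markers below the filter. Alternatives were quantile normalization, median centring, other filters, eBayes without a trend, the replicate block, leaving out each array and, for the lists, any probe set of a gene.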

Additional observations from a re-analysis of the deposited data

How the results depend on the processing

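Of 89 recomputed values of the 9 tested probe sets, 80 kept their direction and their side of the threshold, 5 gained a call (Vgf and Chgb, given with the comparison) and 4 turned direction without a call. The turned values were Scg2 at 0.024 under quantile normalization and 0.021 without forskolin replicate 2, and Scg3 at 0.058 without forskolin replicate 1, and at 0.020 when no forskolin replicate 2 was left out (log2). Over the 4 fits that leave out 1 array, turned or not, Scg2 ranged from -0.058 to 0.021 and Scg3 from -0.099 to 0.058. The number of member probe sets called was 2 under quantile normalization and 2 with median centring. Over all tested chip A probe sets, 226 were called higher and 140 lower with the authors' scaling. Under quantile normalization these counts were 282 and 190, and with median centring 300 and 277. The second Pam probe set gave no value with the filter at the 50th percentile, which removes it. Over all of chip A, 140 probe sets were called lower, but 277 with median centring, 46 with the replicate block and 83 to 192 without 1 array. On chip B, 16 were called higher and 1 lower, against 27 and 3 under quantile normalization, 10 to 41 and 0 to 57 without 1 array, and 2 lower with the replicate block. The cause was not tested. The replicate numbers are not stated to pair the arrays, and same-numbered deviations correlated at 0.003 on chip A and 0.197 on chip B; with the replicate block the adjusted p of Vgf was 0.134 and that of Chgb 0.180. The count in the other granule lists stayed at 1 higher and 0 lower under all 11 alternatives. Precision is limited by 2 arrays per group.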
